A study of Mus musculus with 48 samples.

Results

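The 8 genes Msh6, Mlh3, Pms1, Pms2, Exo1, Fan1, Lig1 and Pcna encode DNA mismatch repair proteins and other factors of somatic repeat instability. They were taken by exact symbol from the deposited tables of 48795 genes, and all 8 were among the 20010 genes that passed the filter on low counts. Their RNA was read in the cerebral cortex of 48 mice aged 6 months, listed under a C57BL/6 background, with 1 bulk library per mouse. The groups were Q140 x Msh3-/- (n = 8), Q140 x Msh3+/- (n = 8), Q140 (n = 8), Msh3-/- (n = 8), Msh3+/- (n = 9) and wild type, WT (n = 7). WT held 4 males and 3 females, Msh3+/- 4 males and 5 females, and each other group 4 of each sex. Q140 is a knock-in of an expanded CAG repeat into Htt, the gene mutated in Huntington disease, and the labels give it as heterozygous. The labels do not say how the Msh3 alleles were made, so Msh3+/- and Msh3-/- are read here only as 1 and 2 altered alleles.

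Mismatch repair begins when a MutS dimer binds a mispaired or looped-out base: the dimer that holds Msh6 reads mainly single mismatches, and the one that holds Msh3 reads larger loops such as those an expanded CAG repeat forms. A MutL dimer that holds Pms2 or Mlh3 then cuts the strand. Pms1 is the alternative partner in a further MutL dimer, whose part in repair is less clear. Pcna, the sliding clamp, directs the cut, Exo1 digests the strand, and Lig1 seals the last nick, while Fan1 is a nuclease that competes with the MutL step. In humans, variants at or near several of these genes are associated with the age at which Huntington disease begins, and in mouse models loss of some of them changes how far the repeat grows in brain cells.

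On GRCm38 (GENCODE M21), Msh6 (ENSMUSG00000005370) spans 87975062 to 87990892 of chromosome 17 on the plus strand. Mlh3 (ENSMUSG00000021245) spans 85234520 to 85270599 of chromosome 12 on the minus strand, and Pms1 (ENSMUSG00000026098) 53189187 to 53297018 of chromosome 1 on the minus strand. Pms2 (ENSMUSG00000079109) spans 143909964 to 143933968 of chromosome 5 on the plus strand, the chromosome of Htt, from which it lies 109 Mb away. Exo1 (ENSMUSG00000039748) spans 175880581 to 175913489 of chromosome 1 on the plus strand, and Fan1 (ENSMUSG00000033458) 64346758 to 64374095 of chromosome 7 on the minus strand. Lig1 (ENSMUSG00000056394) spans 13277283 to 13311433 of chromosome 7 on the plus strand, and Pcna (ENSMUSG00000027342) 132249162 to 132253314 of chromosome 2 on the minus strand. None of the 8 genes shares the chromosome of Msh3.

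RefSeq promoters (GRCm38.p6, 250 bases before to 50 after a transcription start) were matched for 7 of the 8 genes, with 10 entries in all. E2F factors switch on genes of DNA synthesis, so the entries were searched on both strands for the 4 E2F words TTTCCCGC, TTTCGCGC, TTTGCCGC and TTTGGCGC. Only Msh6 and 1 of the 3 Lig1 entries held one, beside 744 of 32851 promoters of the whole table (2.26%). These are shown with the promoter of Pms2, the gene that differed between the sexes, and capitals mark the E2F word. In Msh6 the word begins at base 16 of the transcript, and in Lig1 it begins at base 27 and reads TTTCGCGC on the opposite strand, and neither overlaps another motif counted here. The windows are chr17:87974800-87975099 (plus strand) for Msh6, chr7:13278576-13278875 (plus strand) for Lig1 and chr5:143909751-143910050 (plus strand) for Pms2.
Msh6: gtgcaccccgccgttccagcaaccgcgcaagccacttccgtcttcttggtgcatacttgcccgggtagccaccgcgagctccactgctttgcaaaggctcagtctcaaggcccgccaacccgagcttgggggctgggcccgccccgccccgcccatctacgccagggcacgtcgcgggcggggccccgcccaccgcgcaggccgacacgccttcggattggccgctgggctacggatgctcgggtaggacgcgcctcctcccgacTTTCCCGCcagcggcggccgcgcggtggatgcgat
Lig1: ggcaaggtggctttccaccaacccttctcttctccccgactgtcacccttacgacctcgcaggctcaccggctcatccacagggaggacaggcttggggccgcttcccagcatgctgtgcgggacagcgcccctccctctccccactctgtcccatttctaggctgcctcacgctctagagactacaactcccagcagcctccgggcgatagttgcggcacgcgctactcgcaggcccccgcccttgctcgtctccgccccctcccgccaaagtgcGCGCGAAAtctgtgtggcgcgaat
Pms2: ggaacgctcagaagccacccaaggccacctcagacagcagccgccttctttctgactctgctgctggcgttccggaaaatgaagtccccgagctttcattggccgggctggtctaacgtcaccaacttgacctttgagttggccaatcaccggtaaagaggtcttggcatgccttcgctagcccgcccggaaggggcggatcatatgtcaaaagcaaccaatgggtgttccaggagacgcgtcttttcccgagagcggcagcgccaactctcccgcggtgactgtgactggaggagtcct
The Msh6 window is 71.7% G or C, the Lig1 window 65.0% and the Pms2 window 58.3%, and the median over all promoters is 52.7%. With each gene counted once over all its entries, CCAAT was in a promoter of 5 of the 7 matched genes, GGGCGG in 5 and TATAAA in 0. Of all single promoter entries, 37.4%, 35.7% and 13.6% held these words. A gene with several entries, as Lig1 has, can hold a word in any of them, so the 2 measures are not alike. The words are descriptions of the sequence and say nothing of what binds there.

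Counts per library lay between 35.9 and 64.5 M, with group medians from 45.7 to 47.5 M. The RNA was that of cortex: the 8 markers of cortical excitatory neurons were all tested and summed to 400.3 to 452 FPKM, with Slc17a7, the vesicular glutamate transporter, at a mean of 234 FPKM. The 3 libraries Q140 x Msh3-/- male 4, Q140 male 1 and Msh3+/- male 2 stood apart on the second principal component (6.69% of variance), with scores of 32.4 to 36.5 against at most 15.7 in the rest. The 3 libraries Msh3-/- female 4, Msh3-/- female 3 and WT male 3 held RNA of choroid plexus, with 106 to 1093 CPM of Ttr, the transthyretin gene, against at most 9.17 CPM elsewhere. Each fit below was repeated without either set. CPM is the count rate on library sizes scaled by the TMM method, FPKM also divides by gene length, and p-values come from quasi-likelihood F-tests in edgeR. A gene is called at an adjusted p under 0.05, with the Benjamini-Hochberg adjustment made over 20010 genes. After a log2 difference, ± gives the standard error from the fit, and after a level or a ratio it gives the SD between mice.

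Per length, the 8 genes spanned a wide range of levels in cortex. Averaged over the 48 mice, Pcna was the highest at 6.91 ± 0.349 FPKM, above 66.8% of the tested genes. Msh6 at 4.90 ± 0.220 FPKM and Mlh3 at 4.86 ± 0.291 FPKM were next and close to each other. Lig1 averaged 2.88 ± 0.225 FPKM and Pms2 2.68 ± 0.182 FPKM, near the middle of the tested genes, with 48.04% of them below Lig1 and 46.8% below Pms2. Fan1 averaged 1.66 ± 0.144 FPKM and Pms1 0.512 ± 0.0569 FPKM, with 22.8% of the tested genes below Pms1 (SD over all 48 mice for each of these averages). Exo1 was near the floor of detection at 0.0803 ± 0.0219 FPKM, with 15 to 58 counts per library and only 3.82% of the tested genes below it. Among the MutL partners the order in FPKM was Mlh3, Pms2, Pms1, and the ranges of these 3 genes over the 48 mice did not overlap: 4.11 to 5.45 FPKM for Mlh3, 2.32 to 3.04 FPKM for Pms2 and 0.404 to 0.630 FPKM for Pms1. These orders depend on the gene length used. In CPM, which does not divide by length, Mlh3 had 22.2 to 30.1 and Pms2 19.2 to 24.5, and these ranges overlap. Pms2 averaged 21.8 CPM and Msh6 20.9 CPM. These are levels of bulk tissue, in which fewer cells of a type and less RNA per cell cannot be told apart.

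**Figure D1:**
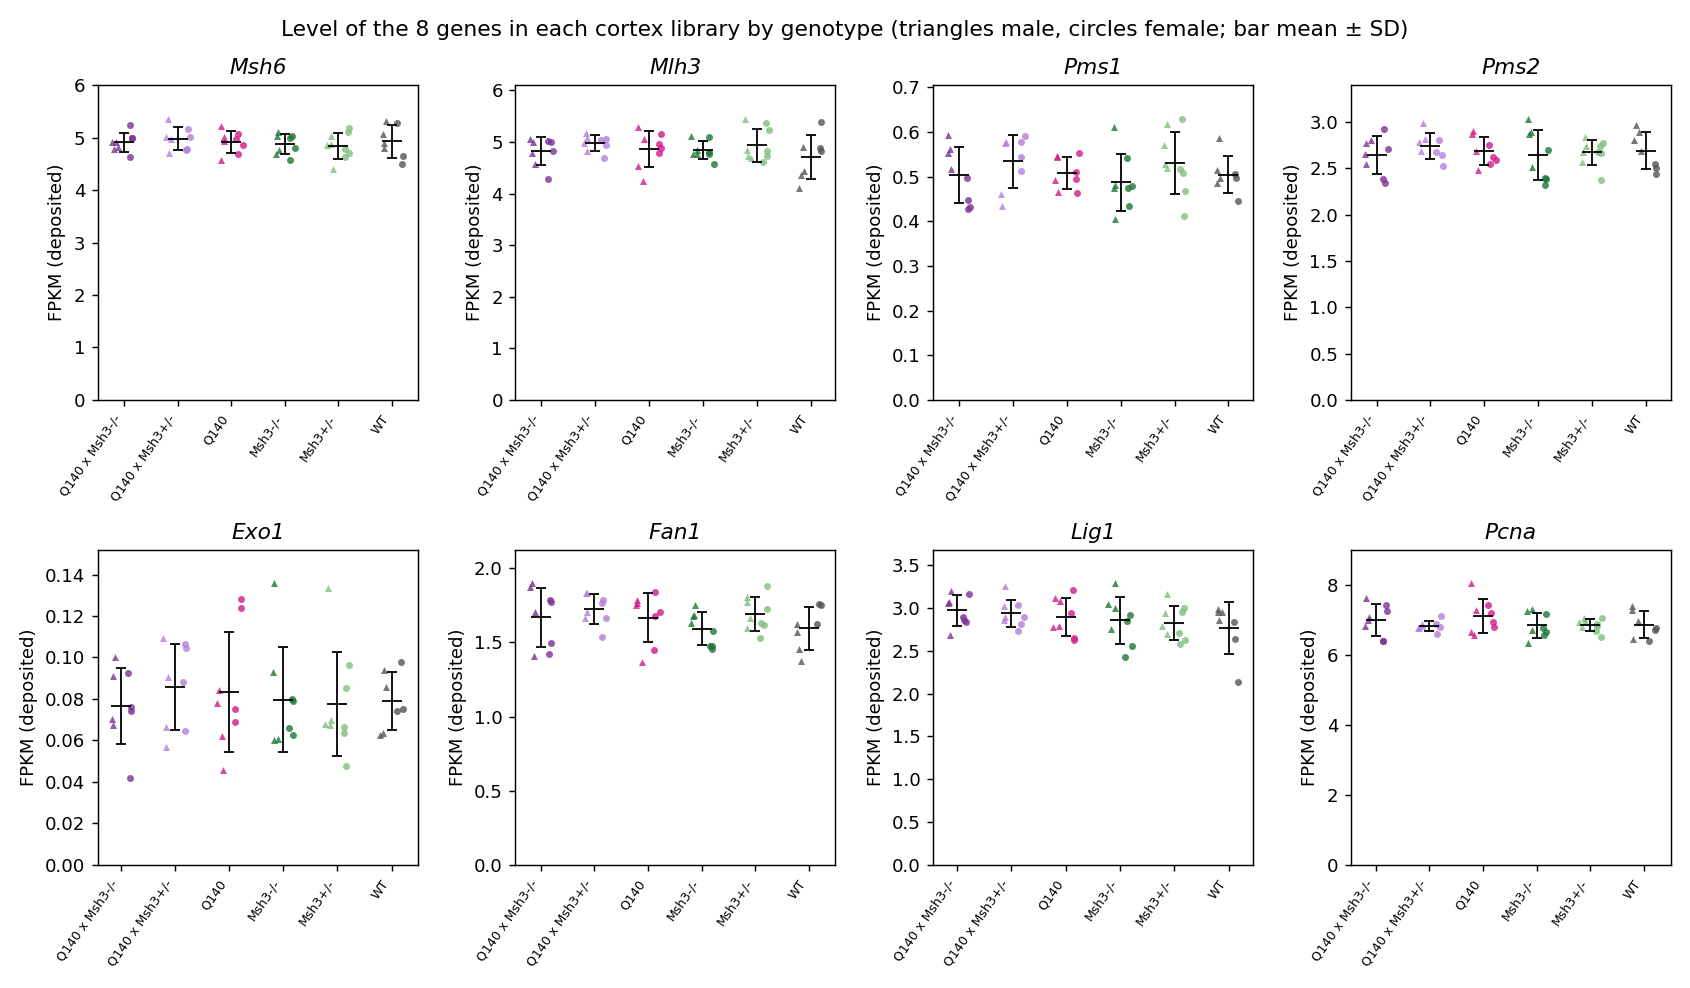
Deposited FPKM (vertical axes, from 0) of the 8 genes in each of the 48 libraries, by genotype; triangles are males, circles females, and bars the mean ± SD of a group. The 6 groups of each gene overlap, and Exo1, at 0.0420 to 0.136 FPKM, scatters most for its level.

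Between mice of the same group the genes also differed in how steady they were. The coefficient of variation within groups was 4.75% for Msh6, 5.04% for Pcna, 5.76% for Mlh3 and 6.18% for Pms2. It was 7.33% for Lig1, 8.13% for Fan1, 10.6% for Pms1 and 27.4% for Exo1. Counting error alone would give 3.21% for Msh6 and 17.8% for Exo1 at their mean counts, and the least expressed genes carry the widest intervals below. The biological part of the variation, as edgeR estimates it, was 4.45% for Msh6 and 21.6% for Exo1.

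Msh6, the MutS subunit that shares its partner with Msh3, differed between the genotypes by less than the spread between mice. Msh6 had lowest, median and highest levels of 4.62, 4.91 and 5.24 FPKM in the Q140 x Msh3-/- group, 4.71, 4.99 and 5.36 FPKM in the Q140 x Msh3+/- group and 4.56, 4.95 and 5.22 FPKM in the Q140 group. Without Q140 these 3 values were 4.58, 4.90 and 5.11 FPKM in the Msh3-/- group, 4.41, 4.86 and 5.18 FPKM in the Msh3+/- group and 4.49, 4.89 and 5.32 FPKM in WT. The ranges of all 6 groups overlap. Ordered by mean, Q140 x Msh3+/- mice were highest at 4.97 ± 0.219 FPKM (SD, n = 8), followed by WT, Q140, Q140 x Msh3-/- and Msh3-/-, with Msh3+/- mice lowest at 4.84 ± 0.244 FPKM (SD, n = 9). Each of the 5 gaps between neighbours in this order was smaller than the larger SD of the pair. Neighbours among 6 ordered means lie close by construction. Here and for the genes below, the gaps therefore describe the order and are no test of a difference. Msh6 shares 34 exon bases with Fbxo11 on the other strand, 0.782% of its exon bases, and how the counting treated strand is not given in the sources used here.

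Msh3 RNA itself was higher, not lower, in the libraries labelled with altered Msh3 alleles. It had 99.1 to 125 CPM in the 16 mice with 2 altered alleles and 61.2 to 77.4 CPM in the 17 mice with 1, against 21.8 to 25.9 CPM in the 15 mice with 0. Msh6 over the same 3 classes had 19.5 to 22.4 CPM, 18.5 to 22.6 CPM and 19.2 to 22.5 CPM. The Msh3 classes are fully separate and the Msh6 classes lie on top of each other. As levels per length, the ratio of Msh3 to Msh6 FPKM was 2.04 ± 0.169 in Q140 x Msh3-/- mice, 1.19 ± 0.0802 in Q140 x Msh3+/- mice and 0.431 ± 0.0377 in Q140 mice (SD, n = 8 each). Without Q140 it was 1.99 ± 0.195 in Msh3-/- (n = 8) and 1.24 ± 0.155 in Msh3+/- mice (n = 9), against 0.438 ± 0.0401 in WT (n = 7). So by deposited FPKM there was less Msh3 than Msh6 RNA per length in every mouse with unaltered Msh3, up to a ratio of 0.491. Every mouse with an altered allele had more, from 1.09 upward. Without division by length, Msh3 averaged 23.9 CPM and Msh6 20.9 CPM in the 15 mice with 0 altered alleles. Which of the 2 genes is higher in those mice thus depends on the length used. Counts per gene do not show which Msh3 exons were read, nor whether a protein is made. For Msh6, the averaged difference between 2 altered alleles and 0 was 0.00 ± 0.03 on the log2 scale, with a 95% interval from -3.90% to 3.49%. The difference between 1 altered allele and 0 had an interval from -3.63% to 3.68%.

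**Figure D2:**
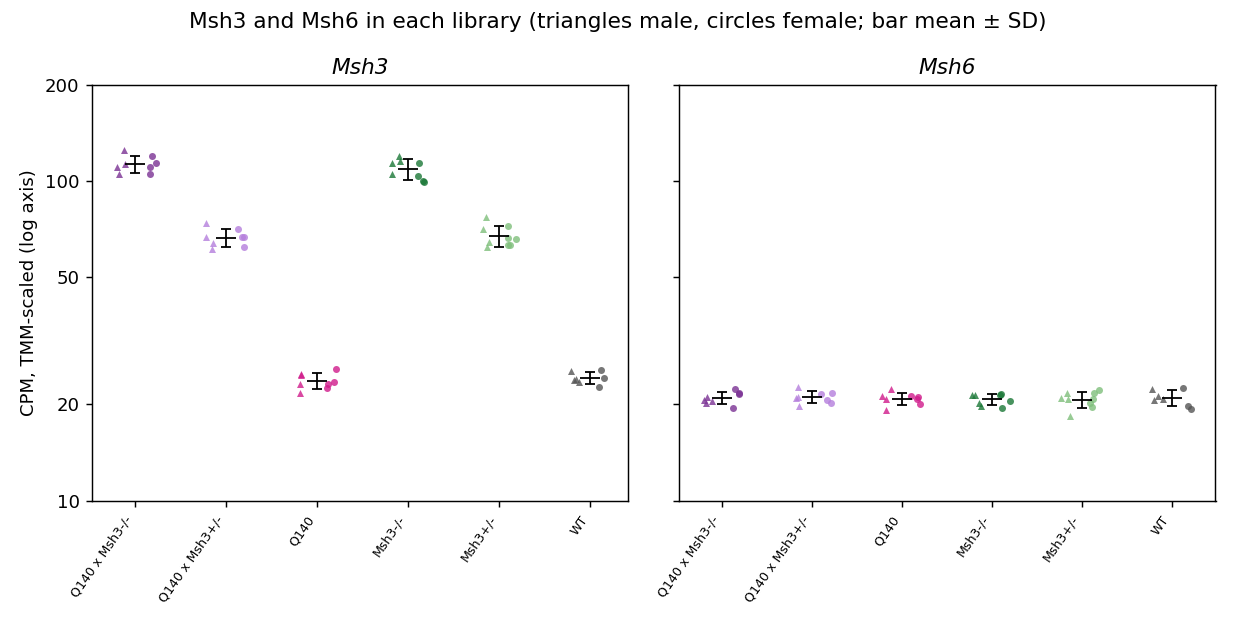
Msh3 (left) and Msh6 (right) in each library in TMM-scaled CPM on a shared log axis, by genotype; triangles are males, circles females, bars the mean ± SD. Msh3 steps up with each altered allele, and Msh6 stays between 18.5 and 22.6 CPM in all 48 mice.

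Of the MutL partners, Mlh3 forms the dimer that is a nuclease in meiosis and in repeat expansion. Mlh3 had lowest, median and highest levels of 4.28, 4.91 and 5.06 FPKM in the Q140 x Msh3-/- group, 4.68, 5.01 and 5.18 FPKM in the Q140 x Msh3+/- group and 4.24, 4.93 and 5.29 FPKM in the Q140 group. In mice without the knock-in they were 4.57, 4.79 and 5.12 FPKM in the Msh3-/- group, 4.62, 4.82 and 5.45 FPKM in the Msh3+/- group and 4.11, 4.83 and 5.38 FPKM in WT. WT had the lowest mouse of all 48 and also a mouse near the top, so its range covers most of the others. By mean the order was Q140 x Msh3+/- at 4.97 ± 0.156 FPKM (SD, n = 8), Msh3+/-, Q140, Msh3-/-, Q140 x Msh3-/- and then WT at 4.70 ± 0.424 FPKM (SD, n = 7). The gap of each of the 5 neighbouring pairs was below the larger SD. The largest Mlh3 estimate was in Msh3+/- against WT, 0.07 ± 0.04 on the log2 scale (unadjusted p = 0.0973, adjusted p = 0.594), and it was not called. In males alone it was 0.16 (unadjusted p = 0.0280, adjusted p = 0.448).

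Pms2 belongs to the MutL dimer that does most of the strand cutting in general mismatch repair. Pms2 had lowest, median and highest levels of 2.34, 2.68 and 2.92 FPKM in the Q140 x Msh3-/- group, 2.52, 2.73 and 2.99 FPKM in the Q140 x Msh3+/- group and 2.49, 2.66 and 2.91 FPKM in the Q140 group. Mice without Q140 had 2.32, 2.61 and 3.04 FPKM in the Msh3-/- group, 2.38, 2.68 and 2.84 FPKM in the Msh3+/- group and 2.44, 2.69 and 2.97 FPKM in WT. The Msh3-/- group spans the lowest and the highest library of all 48. Group means ran from 2.74 ± 0.139 FPKM in Q140 x Msh3+/- mice (SD, n = 8) through WT, Q140, Msh3+/- and Q140 x Msh3-/- to 2.64 ± 0.272 FPKM in Msh3-/- mice (SD, n = 8), and no neighbouring gap reached the larger SD. The Q140 against WT difference was 0.00 ± 0.04 (log2), with an interval from -5.77% to 6.05%. Pms2 shares 394 exon bases with Gm42421 and 85 with Rsph10b on its own strand, 4.85% and 1.05% of its exon bases, so some reads of the 3 genes can be ambiguous.

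Pms1 forms the MutL dimer whose part in repair is least clear. Pms1 had lowest, median and highest levels of 0.428, 0.507 and 0.593 FPKM in the Q140 x Msh3-/- group, 0.435, 0.560 and 0.591 FPKM in the Q140 x Msh3+/- group and 0.463, 0.502 and 0.554 FPKM in the Q140 group. The same 3 values without Q140 were 0.404, 0.477 and 0.611 FPKM in the Msh3-/- group, 0.411, 0.520 and 0.630 FPKM in the Msh3+/- group and 0.446, 0.498 and 0.586 FPKM in WT. At 116 to 242 counts per library its groups overlap broadly. Q140 x Msh3+/- mice had the highest mean, 0.535 ± 0.0593 FPKM (SD, n = 8), then came Msh3+/-, Q140, WT and Q140 x Msh3-/-, and Msh3-/- mice had the lowest, 0.488 ± 0.0636 FPKM (SD, n = 8). All 5 neighbouring gaps were below the larger SD. The averaged difference between 1 altered Msh3 allele and 0 was 0.08 ± 0.06 on the log2 scale (unadjusted p = 0.169, not called), and that between 2 and 0 was -0.03 ± 0.06. Pms1 shares 138 exon bases with the antisense gene Gm28777, which had at most 3 counts in any library.

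Exo1, the exonuclease that removes the strand holding the mismatch, was barely expressed. Exo1 had lowest, median and highest levels of 0.0420, 0.0751 and 0.1004 FPKM in the Q140 x Msh3-/- group, 0.0566, 0.0894 and 0.110 FPKM in the Q140 x Msh3+/- group and 0.0458, 0.0766 and 0.128 FPKM in the Q140 group. Among mice without Q140 they were 0.0602, 0.0726 and 0.136 FPKM in the Msh3-/- group, 0.0477, 0.0681 and 0.134 FPKM in the Msh3+/- group and 0.0624, 0.0749 and 0.0976 FPKM in WT. The spread within each group is as wide as any difference between groups. Means ran from 0.0858 ± 0.0209 FPKM in Q140 x Msh3+/- mice (SD, n = 8) through Q140, Msh3-/-, WT and Msh3+/- to 0.0767 ± 0.0183 FPKM in Q140 x Msh3-/- mice (SD, n = 8), with all 5 neighbouring gaps below the larger SD. Over the 7 pairwise genotype comparisons its 95% bounds spanned -29.4% to 44.2%, the widest of the 8 genes. In the Msh3-/- group, male 4 alone had 1.13 CPM, and the next mouse had 0.775 CPM.

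Fan1, the nuclease that in humans is the leading modifier of Huntington disease onset, was expressed above Exo1. Fan1 had lowest, median and highest levels of 1.41, 1.74 and 1.90 FPKM in the Q140 x Msh3-/- group, 1.54, 1.74 and 1.84 FPKM in the Q140 x Msh3+/- group and 1.37, 1.73 and 1.84 FPKM in the Q140 group. Corresponding values without the knock-in were 1.46, 1.60 and 1.75 FPKM in the Msh3-/- group, 1.53, 1.67 and 1.88 FPKM in the Msh3+/- group and 1.38, 1.62 and 1.76 FPKM in WT. The median was higher in each Q140 group than in the matching group without Q140, and the ranges overlap in all 3 pairs. By mean the order was Q140 x Msh3+/- at 1.72 ± 0.102 FPKM (SD, n = 8), Msh3+/-, Q140 x Msh3-/-, Q140, WT and Msh3-/- at 1.59 ± 0.111 FPKM (SD, n = 8). Every gap between neighbours was smaller than the larger SD. The Q140 difference in Fan1, averaged over the 3 Msh3 genotypes, was 0.05 ± 0.04 on the log2 scale, with an interval from -1.35% to 8.80% (adjusted p = 0.939).

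Lig1, the ligase that seals the repaired strand, gave the smallest p of the 8 genes over the genotype comparisons. Lig1 had lowest, median and highest levels of 2.68, 2.98 and 3.20 FPKM in the Q140 x Msh3-/- group, 2.73, 2.89 and 3.26 FPKM in the Q140 x Msh3+/- group and 2.62, 2.86 and 3.21 FPKM in the Q140 group. For mice without Q140 these were 2.43, 2.88 and 3.29 FPKM in the Msh3-/- group, 2.58, 2.79 and 3.17 FPKM in the Msh3+/- group and 2.13, 2.86 and 2.98 FPKM in WT. Ordered by mean, the groups were Q140 x Msh3-/- at 2.97 ± 0.180 FPKM (SD, n = 8), Q140 x Msh3+/-, Q140, Msh3-/-, Msh3+/- and WT at 2.77 ± 0.303 FPKM (SD, n = 7), which places the 3 Q140 groups above the 3 others. The 5 neighbouring gaps were all below the larger SD, and the ranges of the first and the last group overlap. The Q140 difference averaged over the 3 Msh3 genotypes was 0.06 ± 0.03 on the log2 scale, with an interval from -0.131% to 8.45%, an unadjusted p of 0.0574 and an adjusted p of 0.865, so it was not called. Without the 3 libraries apart on the second component it was 0.07 (edgeR, unadjusted p = 0.0191, adjusted p = 0.703). Without the 3 with choroid plexus RNA it was also 0.07 (unadjusted p = 0.0320, adjusted p = 0.715). With the plate column of the well address in the model it was 0.04 (unadjusted p = 0.168, adjusted p = 0.892). It was called under 0 of the 15 alternative fits listed below. In females alone it was 0.12 (unadjusted p = 0.0196, adjusted p = 0.791) and in males alone 0.01 (unadjusted p = 0.778), and whether the sexes differ in it was not tested. WT female 1, at 9.24 CPM with the next WT mouse at 11.3 CPM, lowers the WT mean. Lig1 shares 247 exon bases, 5.79% of its own, with Zswim9 on the other strand.

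Pcna, the clamp that loads the repair enzymes, was the highest of the 8 in FPKM, though its mean of 16.6 CPM lay below the 26.5 CPM of Mlh3. Pcna had lowest, median and highest levels of 6.39, 7.04 and 7.62 FPKM in the Q140 x Msh3-/- group, 6.60, 6.81 and 7.10 FPKM in the Q140 x Msh3+/- group and 6.58, 7.07 and 8.04 FPKM in the Q140 group. Groups without Q140 had 6.33, 6.73 and 7.31 FPKM in the Msh3-/- group, 6.51, 6.89 and 7.05 FPKM in the Msh3+/- group and 6.39, 6.76 and 7.40 FPKM in WT. The single highest library, Q140 male 1, is one of the 3 that stood apart on the second principal component. The highest group mean was 7.11 ± 0.480 FPKM in Q140 mice (SD, n = 8), followed by Q140 x Msh3-/-, WT, Msh3+/- and Msh3-/-, and the lowest was 6.83 ± 0.139 FPKM in Q140 x Msh3+/- mice (SD, n = 8). None of the 5 neighbouring gaps reached the larger SD. The processed pseudogene Pcna-ps2 on chromosome 19 held 232 to 498 counts per library, between 26.9% and 33.8% of the counts of Pcna and Pcna-ps2 together, and reads of the gene and its copy can be hard to tell apart. With both summed, the averaged Q140 difference was 0.01 ± 0.02 on the log2 scale, beside 0.02 ± 0.02 for Pcna alone, and no comparison was called.

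Across genotypes, then, none of the 8 genes was called in any comparison. Q140 x Msh3-/- against Msh3-/- gave 0 of 8 genes (background 0% of tested genes), Q140 x Msh3+/- against Msh3+/- gave 0 (0.015%) and Q140 against WT gave 0 (0.01%). For the altered Msh3 alleles, 0 of 8 were called in Msh3-/- against WT (0.035%), in Msh3+/- against WT (0.025%), in Q140 x Msh3-/- against Q140 (0.045%) and in Q140 x Msh3+/- against Q140 (0.02%). The counts were also 0 for the averaged Q140 difference (0.035%), for 1 altered allele (0.02%) and 2 altered alleles (0.085%) against 0, and for the differences between Q140 effects in Msh3+/- and WT (0%) and in Msh3-/- and WT (0%). In the F-test over all 6 genotypes 0 of 8 were called (0.105%). Calls were so rare over the whole table that a count of 0 among 8 genes does not set them apart from other genes. Over these 12 contrasts the 8 genes gave 96 tests, of which edgeR put 0 at an unadjusted p under 0.05, beside 5.14% to 9.5% of all tested genes. The contrasts are all combinations of the same 6 group means. The 96 tests are therefore not independent, and their count does not show that the 8 genes are steadier than others. DESeq2 and limma on log2 FPKM likewise called 0 of the 8 genes.

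The size of any difference was bounded by the intervals of the fit to both sexes. Leaving Exo1 aside, the largest estimate for the 7 other genes over the 7 pairwise comparisons was 6.76%, for Fan1 in Msh3+/- against WT, and the 95% intervals ran from -13.6% to 18.4%. Both outer bounds belong to Pms1, in Msh3-/- against WT and in Msh3+/- against WT. Fits of 1 sex alone, with fewer mice, gave larger estimates: on the log2 scale Fan1 in Msh3+/- against WT was 0.19 in males (adjusted p = 0.449), beside 0.09 over both sexes, and Fan1 in Msh3-/- against WT was -0.19 in females (adjusted p = 0.989). In the averaged Q140 comparison, which uses all 48 mice, the intervals of these 7 genes lay between -4.77% and 8.80%. All 8 estimates were above 0 in that comparison, from 0.01 for Pms2 to 0.06 for Lig1 on the log2 scale, with a median of 0.02 beside 0.00 over all tested genes and 49.7% of all genes above 0. With 2 altered Msh3 alleles against 0, 3 of the 8 lay above 0 (median -0.01), and with 1 altered allele 6 of 8 (median 0.03), beside 47.4% and 48.4% of all tested genes. The WT mice and the Q140 mice each serve as controls in more than 1 of these comparisons, so the estimates are not independent of each other.

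**Figure D3:**
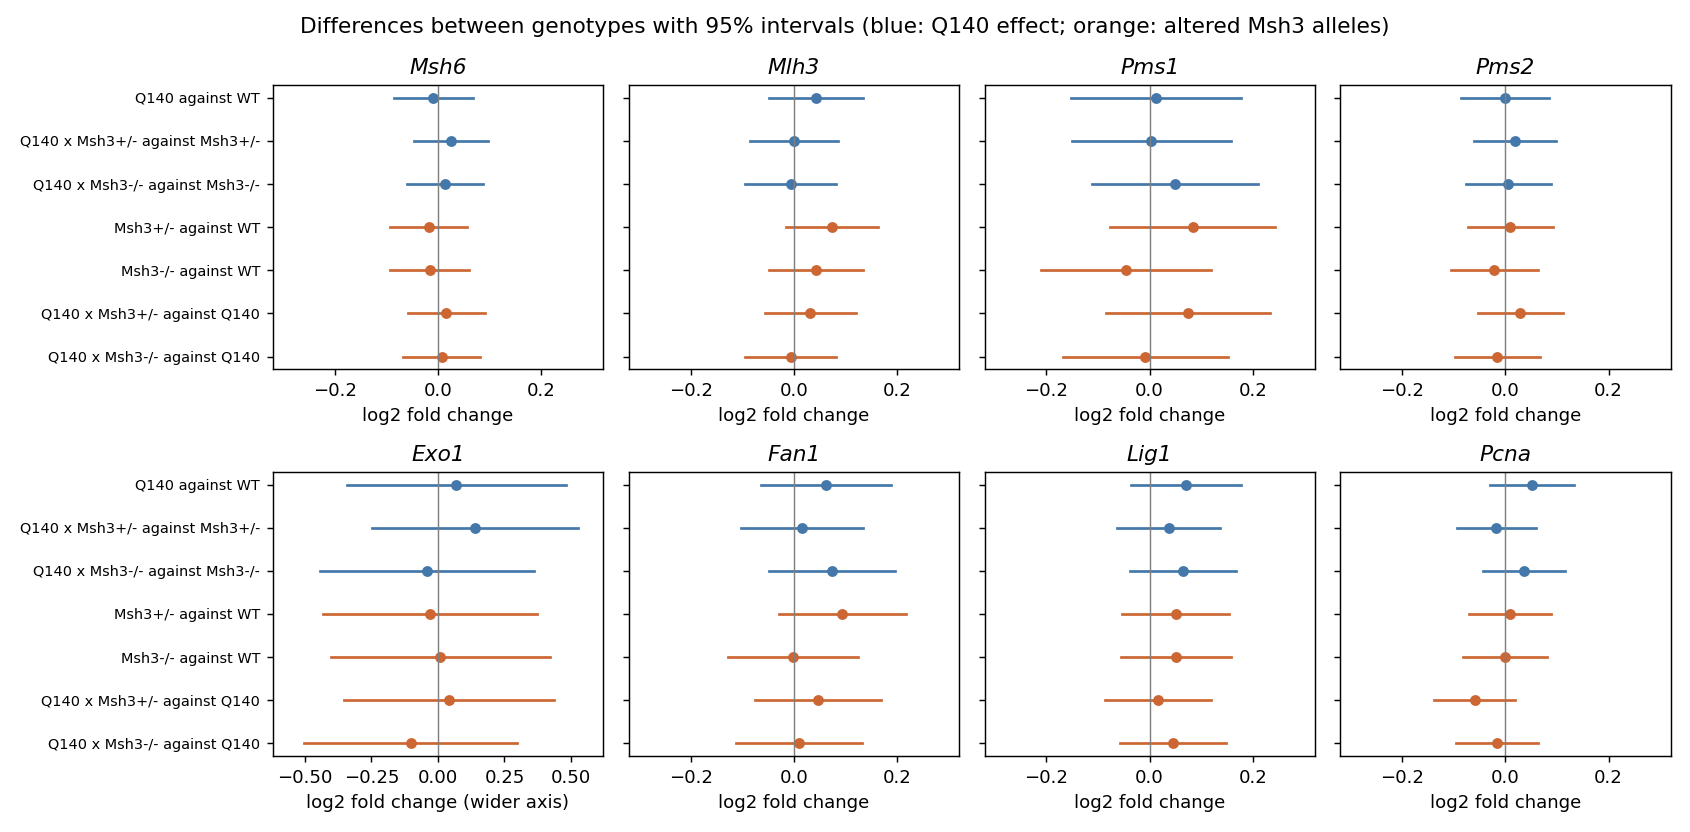
Log2 fold changes (points) with 95% intervals (lines) of the 8 genes in the 7 pairwise genotype comparisons, blue for Q140 and orange for altered Msh3 alleles; Exo1 has a wider horizontal axis. Every interval includes 0, and those of Msh6 are among the shortest.

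Sex was the one factor under which a member of the group was called. Pms2 was higher in males than in females, and of the 8 genes it was the only one called, beside 5.56% of all tested genes (1112 of 20010). By sex, edgeR gave an unadjusted p under 0.05 for 2 of the 8 genes, beside 20.7% of all tested genes. Counts of 1 and 2 among 8 genes do not set these genes apart from other genes. In males the lowest, median and highest levels of Pms2 were 20.3, 22.6 and 24.5 CPM (n = 24). In females they were 19.2, 21.2 and 23.5 CPM (n = 24). The sexes overlap: 20 of 24 males lay above the female median, 3 above the highest female, and 7 females lay below the lowest male. The mean was 22.4 ± 1.11 CPM in males and 21.1 ± 1.21 CPM in females (SD), a log2 difference of 0.09 ± 0.02 or 6.48%, with a 95% interval from 3.02% to 10.1% (edgeR, unadjusted p = 0.000384, adjusted p = 0.0155).

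The male mean of Pms2 was the higher one in 6 of 6 genotypes. It was 21.9 CPM in males against 21.1 CPM in females of Q140 x Msh3-/-, 22.6 against 21.7 in Q140 x Msh3+/-, and 22.1 against 21.3 in Q140. Without Q140 it was 22.9 CPM in males against 20.02 CPM in females of Msh3-/-, 22.04 against 21.6 in Msh3+/-, and 23.0 against 20.4 in WT. The gap was widest in Msh3-/-, at 2.87 CPM, and narrowest in Msh3+/-, at 0.419 CPM. Whether the gap differs between genotypes was not tested. It had the same sign within each of the 6 plate columns of the well addresses, from 0.522 CPM in column 6 to 1.93 CPM in column 4. Gm42421 and Rsph10b, which share exon bases with Pms2, were not called by sex (adjusted p = 0.491 and 0.700), with log2 differences of 0.18 ± 0.14 and 0.03 ± 0.04.

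Lig1 came closest to Pms2, higher in males by 0.08 ± 0.03 on the log2 scale with an interval from 1.72% to 10.47%, but its adjusted p was 0.0806. Its lowest, median and highest levels were 11.6, 12.6 and 13.8 CPM in males (n = 24), against 9.24, 12.2 and 13.7 CPM in females (n = 24). The male mean was higher in 6 of 6 genotypes but in only 4 of the 6 plate columns. Without the 3 libraries that stood apart on the second principal component the Lig1 difference was 0.10 (adjusted p = 0.0383) and was called. The sex differences of the other 6 genes were not called, with adjusted p from 0.401 for Pms1 to 0.968 for Exo1. Their log2 values were 0.07 ± 0.05 for Pms1, 0.02 ± 0.04 for Fan1, 0.02 ± 0.02 for Pcna, 0.00 ± 0.02 for Msh6, -0.01 ± 0.12 for Exo1 and -0.03 ± 0.03 for Mlh3.

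**Figure D4:**
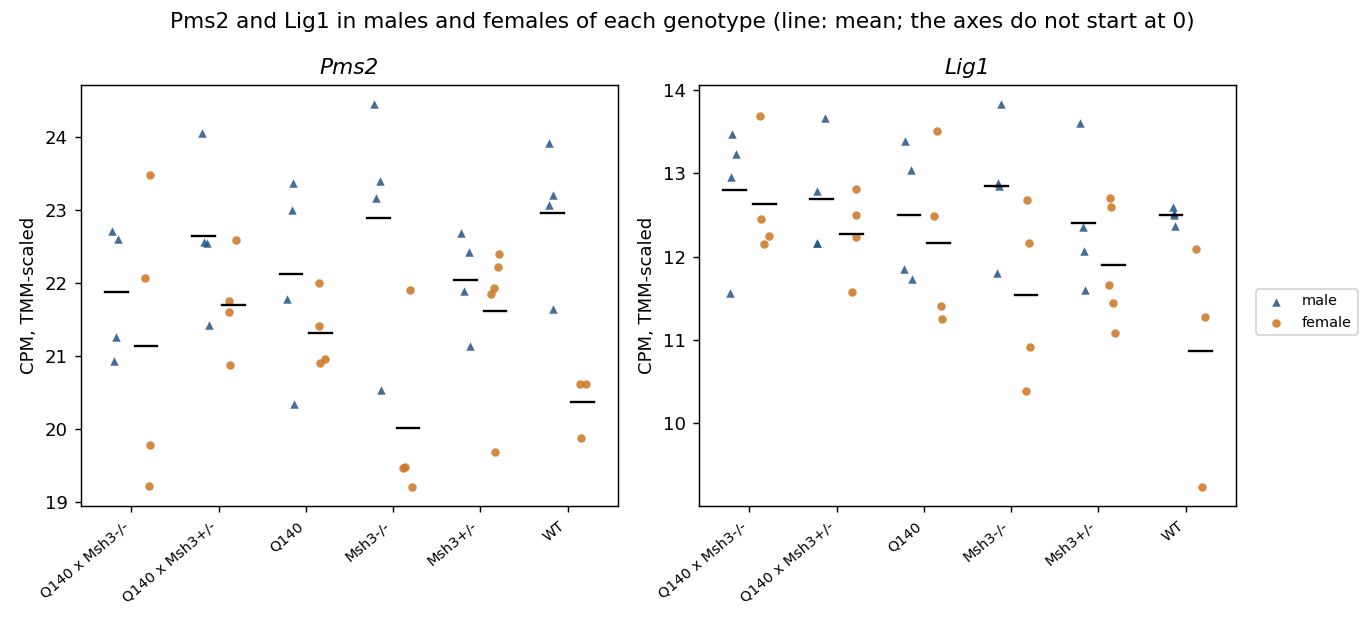
TMM-scaled CPM of Pms2 (left) and Lig1 (right) in male (triangles) and female (circles) mice of each genotype, with a line at each mean; the axes do not start at 0. The male mean of Pms2 is above the female mean in 6 of 6 genotypes, and single mice overlap.

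Some markers of cell types and of neighbouring tissue also differed by sex. Prl and Gh, hormones of the pituitary, were lower in males with log2 differences of -6.13 and -2.16 (adjusted p = 6.69e-06 and 0.0387). Only 3 of the 6 pituitary markers were tested. Of the 48 libraries, 32 had 0 counts of Prl, 26 had 0 of Gh and 46 had 0 of Cga. The markers summed to 0.333 to 0.968 FPKM in males (median 0.543) and 0.249 to 10.98 FPKM in females (median 0.638). Olig2, of oligodendrocyte precursors, was lower in males (log2 difference -0.16, 1 of 6 markers called, sum 40.1 to 52.6 FPKM in males and 42.0 to 57.01 FPKM in females). Of the 6 astrocyte markers Aldh1l1 was lower in males (-0.11) and Gja1 higher (0.08), as log2 differences (sum 354 to 409 FPKM in males, 340.1 to 429 FPKM in females). Slc17a7 was higher in males by 0.08 on the same scale (1 of 8 excitatory markers called, 3 estimates above 0 and 5 below, sum 404 to 451 FPKM in males, 400.3 to 452 FPKM in females). Drd1, a dopamine receptor of striatal neurons, was higher in males by 0.23 on that scale (1 of 6 striatal markers called, 3 estimates above 0 and 3 below, sum 28.6 to 38.7 FPKM in males and 27.1 to 41.3 FPKM in females). Adora2a of the same list, an adenosine receptor, had -0.23 and was not called (adjusted p = 0.0771). The part of these markers in the Pms2 difference was not tested.

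The wider repair pathway gave no called gene across genotypes either. In 6 lists of partners, other disease modifiers and cell cycle genes, 50 of 54 genes were tested. Of these 50, edgeR called 0 in each of the 12 genotype contrasts and in the F-test over the 6 genotypes. Over all tested genes the called share was 0% to 0.085% in the contrasts and 0.105% in the F-test. A count of 0 among 50 therefore does not set these genes apart from other genes. Between 1 and 7 of the 50 had an unadjusted p under 0.05 in a contrast (2% to 14%, beside 5.14% to 9.5% of all tested genes), the 7 in Q140 x Msh3-/- against Msh3-/-, where the share of all genes was 6.8%. By sex 0 of the 50 were called, beside 5.56% of all tested genes. An unadjusted p under 0.05 was found for 9 (18%, beside 20.7% of all tested genes). The clamp loader, RPA and DNA polymerase delta genes, which act on the clamp and fill the gap, had 12 of 12 tested and means from 1.08 FPKM for Rfc4 to 7.22 FPKM for Rfc1. Pold1, the catalytic polymerase subunit, had the smallest p of this list with 2 altered alleles against 0, a log2 value of -0.14 ± 0.05 (unadjusted p = 0.0101, adjusted p = 0.385). Of the base excision and flap repair genes (10 of 10 tested), Parp1, the strand break sensor, was highest at 14.3 FPKM. Polb, the gap-filling polymerase of that pathway, had 0.06 ± 0.02 with 2 altered alleles against 0 (unadjusted p = 0.0119, adjusted p = 0.398), and Lig3 had -0.06 ± 0.02 in the averaged Q140 comparison (unadjusted p = 0.0057, adjusted p = 0.642).

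Of the crosslink repair partners of Fan1, 5 of 6 were tested, from 0.0646 FPKM for Fanci to 5.47 FPKM for Slx4, the nuclease scaffold. Fancm, a DNA translocase, had 0.07 ± 0.03 in the averaged Q140 comparison (unadjusted p = 0.0302, adjusted p = 0.823). Of the other modifier candidates 6 of 6 were tested, and 0 were called in any genotype contrast.

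Genes of dividing cells were low in this tissue. The 12 replication licensing and S phase genes were all tested, with a median of their mean levels of 0.649 FPKM, beside 2.78 FPKM for the 8 genes described here. Of the 8 mitosis markers 5 were tested, and all 8 summed to 0.478 to 0.895 FPKM per library. Mki67 averaged 0.0663 FPKM and Top2a 0.0481 FPKM, so Exo1, at 0.0803 FPKM, lay at the level of mitosis markers, while Pcna, at 6.91 FPKM, lay above the highest S phase gene, Mcm4, at 2.95 FPKM. Tyms, which makes thymidylate, had -0.25 ± 0.08 in the averaged Q140 comparison (unadjusted p = 0.00215, adjusted p = 0.532), and Cdc45, of the replicative helicase, 0.22 ± 0.09 with 1 altered allele against 0 (adjusted p = 0.554). None of these was called.

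The 8 genes were also set beside each other from mouse to mouse. After the means of genotype and sex were removed, the 28 pairs had Pearson's r between -0.27 and 0.35 over the 48 mice, with a median of 0.04, and 19 of the 28 were under 0.2 in size. The highest were Mlh3 with Fan1 (0.35), Msh6 with Lig1 (0.33) and Mlh3 with Pms1 (0.30), and the lowest was Mlh3 with Lig1 (-0.27). Pms2 had r = 0.15 with Lig1. Within 1 sex (24 mice each) the pairs spread wider, with r from -0.43 to 0.58 in males and from -0.63 to 0.48 in females. Pms2 with Exo1 had 0.58 in males and -0.15 in females, and Fan1 with Pcna had 0.20 in males and -0.63 in females. These values share library, depth and cell mix and are a description only.

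**Figure D5:**
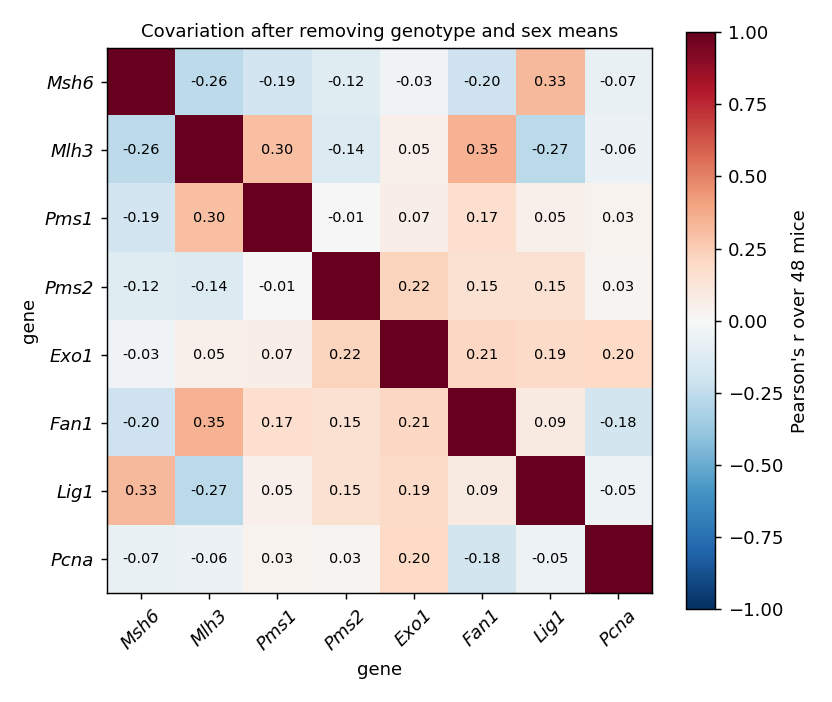
Pearson's r between each pair of the 8 genes over the 48 mice, from log2 CPM after removal of genotype and sex means; both axes list the genes and the colour runs from -1 (blue) to 1 (red). No pair of different genes is above 0.35 or below -0.27.

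Most like each gene in this sense, among 15051 genes with a symbol that is no gene model or pseudogene, were genes outside the repair lists. They were Sin3a (0.70) and Zfp667 (0.69) for Msh6, Pmaip1 (0.66) and Bbx (0.64) for Mlh3, and Cirbp (0.68) and Slc9a8 (0.64) for Pms2. Likewise they were Capn2 (0.68) and Tceanc (0.67) for Fan1, Cyb5r3 (0.63) and Epm2a (0.61) for Lig1, and Sumo3 (0.56) and Eif2ak1 (0.55) for Pcna. For the low genes they were Rpap2 (0.74) and Mctp2 (0.64) for Exo1 and Gpr151 (0.50) and Gtf2e1 (0.49) for Pms1. Each value is the top of 15051 over the same 48 mice, and r was computed over few mice for so many genes.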

How the data were processed

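Cortical RNA of 48 mice was read in 1 library each. RNA came from an RNeasy kit and libraries from a TruSeq stranded protocol, per the labels' protocols. STAR 2.7.5c, SAMtools 1.10, HTSeq 0.12.3 and GRCm38 (mm10) were named, per the submitters' processing notes, and the annotation release, strand setting and filters are not given in the sources used here. The deposited counts are raw whole numbers per Ensembl gene, and the deposited FPKM values were scaled by the authors for gene length and depth. Here filterByExpr (edgeR 4.0.16, R 4.3.3) kept 20010 of 48795 genes with 99.96% of the counts, and a TMM-normalized model of 6 genotypes plus sex took in all 48 libraries. Calls need a Benjamini-Hochberg adjusted p under 0.05 over all tested genes, and the scripts were tested on simulated data. Levels are FPKM as deposited or CPM, and residual correlations use log2 CPM with a prior count of 1. The 8 genes and the lists were chosen with earlier results of these data known. All 8 genes are named in every comparison, and of the other lists the called genes and those with the smallest p. Some genes of these lists are not reported here. For likeness, the 2 genes with the highest r are named per gene. Alternatives were RLE factors, other filters, DESeq2 1.42.0, limma 3.58.1 on log2 FPKM plus 0.1 or 1, a replicate block, plate column, no sex term, 1 sex alone, 3 libraries left out and a random block for the stem of the column name. Summing Pcna and Pcna-ps2 was added after seeing the data. Mice that share a stem (27 stems) had a consensus correlation of 0.106, and the other fits treat mice as independent.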

Additional observations from a re-analysis of the deposited data

Results flagged for a closer look

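Single mice lay far from the others of their group in 2 of the 48 sets of values examined, 1 set for each of the 8 genes in each of the 6 groups, and chance alone marks about 1 set in 20. Exo1 in the Msh3-/- group was 1.13 CPM in male 4, and the next mouse had 0.775 CPM and the lowest 0.509 CPM. Lig1 in the WT group was 9.24 CPM in female 1, and the next mouse had 11.3 CPM and the highest 12.6 CPM.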

How the results depend on the processing

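No genotype contrast called any of the 8 genes under the 15 alternatives: of 1547 tests 0 were called, the smallest adjusted p was 0.448, and 9 had an unadjusted p under 0.05. These 9 were Lig1 in the averaged Q140 comparison (4 alternatives) and Fan1 or Mlh3 in single-sex fits. Of 1428 estimates, none of them called, 149 changed sign. The strict filter removed Exo1. Pms2 stayed called by sex in the 11 alternatives that could test it, at 0.07 to 0.10 on the log2 scale (adjusted p 0.0054 to 0.0359). Without the 3 libraries apart on the second component, 2 of the 8 genes were called by sex instead of 1, the added gene being Lig1, and the cause was not tested. Counts of called genes over the whole table moved more. DESeq2 called 5 instead of 0 in Q140 x Msh3-/- against Msh3-/-, 12 instead of 5 in Msh3+/- against WT, 13 instead of 7 in Msh3-/- against WT, 12 instead of 7 for averaged Q140, 30 instead of 17 for 2 altered alleles and 45 instead of 21 for any genotype. Plate column gave 12 instead of 0 in Q140 x Msh3-/- against Msh3-/-, 1 instead of 5 in Msh3+/- against WT and 1 instead of 3 in Q140 x Msh3+/- against Msh3+/-. Any genotype gave 11 under the strict filter, 12 under limma and 9 in males. Averaged Q140 gave 4 under limma, plate column or without the choroid libraries, 2 in females and 3 in males. Fits of 1 sex, with fewer mice, also gave down to 8 for 2 altered alleles and 3 in Q140 x Msh3-/- against Q140. Replicate numbers did not pair the mice: same-numbered mice of 1 sex had a mean r of -0.03 over 115 pairs, other pairs -0.02, and 10 of 48 mice were closest to one with their own number. With the replicate block 0 of the 8 genes were called in each genotype contrast, and the table gave 4 for averaged Q140 and 12 for any genotype. Exo1 had 15 to 58 counts per library, with a counting error of 17.8% and a biological variation of 21.6%.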

Other observations

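The residual level of each gene was also set beside the mean residual of each marker or pathway list over the 48 mice, as a description. Fan1 followed the base excision and flap repair list most closely (r = 0.53) and the clamp loader list next (0.43). Pms2 had r = 0.39 with base excision and flap repair, and Pcna had -0.39 with it. Msh6 had its highest value with cortical excitatory neurons (0.40), and Lig1 with the clamp loader list (0.34). The mitosis markers had r = -0.34 with Pms2 and 0.10 with Exo1. Msh6 also had -0.31 with oligodendrocyte precursors, and Pcna had 0.30 with cortical excitatory neurons. Apart from that of Exo1, the values named are the largest in size among all pairs of gene and list. All of them share library and depth.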
